A study of Mus musculus with 8 samples.

Results

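The miRNAs described are the 4 mature strands named mmu-miR-10a-5p, mmu-miR-10b-5p, mmu-miR-196a-5p and mmu-miR-196b-5p (written below without the species prefix), which are encoded inside the mouse Hox gene clusters. They were chosen by name, as every non-control spot on the arrays that carries one of these names, and make up 4 of the 1023 mouse miRNA names and 10 of the 2645 mouse miRNA probes. Total RNA of whole kidneys from CD-1 mice, an outbred stock, was hybridised to one-colour (Cy3) Agilent arrays. Mice of the tacrolimus group (4 arrays) received 1 mg/kg of the drug per day for 28 days, and the control group (4 arrays) received physiological serum. Both groups share the stock, the organ, an RNA input of 0.1 µg and an RNA integrity number of 9. Age, sex and whether each array is a separate mouse are not given in the sources used here, so every p-value here speaks of variation among these 8 samples and that variation could be technical.

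Hox genes encode transcription factors that set position along the body axis, and they lie in clusters in which gene order follows the order of expression along that axis. The miR-10 genes sit beside the Hox genes of paralogous group 4 and the miR-196 genes beside those of group 9, and both families are transcribed with their cluster. miR-196 is known to direct cleavage of Hoxb8 mRNA in mouse embryos, and miR-10 to repress Hox genes of its own clusters in zebrafish. Adult kidney keeps a posterior Hox programme from its embryonic origin, and miR-10 strands are well known among its abundant miRNAs. Tacrolimus is a calcineurin inhibitor used against transplant rejection and known to injure the kidney, and the study asked whether it alters kidney miRNA levels.

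The mature sequences are shown because the families are told apart by their seeds (bases 2 to 8, in capitals), which pair with target mRNAs, and because members of a family are hard to tell apart on an array. They are RNA, 5′ to 3′, from RefSeq on GRCm38.p6, where all 4 names were matched.
miR-10a-5p (Mir10a, chr11:96317186-96317208, + strand): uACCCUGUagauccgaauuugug
miR-10b-5p (Mir10b, chr2:74726074-74726096, + strand): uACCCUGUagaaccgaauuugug
miR-196a-5p (Mir196a-1, chr11:96265187-96265208, + strand, and Mir196a-2, chr15:102973365-102973386, + strand): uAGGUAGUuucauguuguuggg
miR-196b-5p (Mir196b, chr6:52230129-52230150, - strand): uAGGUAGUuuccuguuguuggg
miR-10a-5p and miR-10b-5p share the seed and 22 of 23 bases, and differ by U12A, counted from the 5′ end. miR-196a-5p and miR-196b-5p share the seed and 21 of 22 bases, and differ by A12C. No other mature mouse miRNA in the RefSeq table (1679 names) has either seed, so each seed is held by 2 names.

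In the RefSeq gene table of the same assembly, Mir10a lies between the protein-coding genes Hoxb5 and Hoxb4 and inside the span of Hoxb3. Mir10b lies inside the spans of Hoxd3 and Hoxd4. Mir196a-1 lies between Hoxb13 and Hoxb9, Mir196a-2 between Hoxc10 and Hoxc9, and Mir196b between Hoxa9 and Hoxa10. That table does not divide the spans into exons and introns, and the header of the array design names an older assembly, mm9.

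The probes hold DNA complementary to the miRNA from its 3′ end, up to base 3 in the longest probes of miR-10a-5p, miR-10b-5p and miR-196b-5p and over the whole length in that of miR-196a-5p. The longest probe of each is shown, with the base opposite the differing position 12 in capitals, since that 1 base is all that separates the strands of a family.
miR-10a-5p, 21 bases: cacaaattcggAtctacaggg
miR-10b-5p, 21 bases: cacaaattcggTtctacaggg
miR-196a-5p, 22 bases: cccaacaacaTgaaactaccta
miR-196b-5p, 20 bases: cccaacaacaGgaaactacc
The other probes are the same strands with up to 3 bases fewer at the 3′ end, 1 more for each of miR-10a-5p, miR-10b-5p and miR-196b-5p and 3 more for miR-196a-5p. Signal of one strand of a family may therefore appear on the probe of the other, and their values are uncertain as separate measurements. miR-196a-5p from its 2 genes cannot be told apart at all.

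All 4 miRNAs were well above background in both groups, on 4 of 4 tacrolimus and 4 of 4 control arrays, with 100% of the kept spots of all 10 probes well above background. None differed between the groups past the test. Levels below are log2 of the background-corrected signal after scaling, with 0 set at the upper quartile (75th percentile) of the 252 probes that all 8 arrays detected. Each miRNA is given by its brightest probe, which for all 4 is its longest. The level of one probe is not set against that of another, because probes differ in how strongly they bind.

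miR-10a-5p had unscaled signals of 3655, 3476, 2154 and 3364 intensity units on tacrolimus arrays 1 to 4, against 3497, 2561, 2112 and 2680 on control arrays 1 to 4. After scaling it stood at 0.71, 0.61, 0.39 and 0.60 on the tacrolimus arrays and at 0.47, 0.42, 0.56 and 0.62 on the control arrays (log2). The groups overlapped: tacrolimus 1 was the highest and tacrolimus 3 the lowest of all arrays, and tacrolimus 2 and 4 lay within the control range. The mean was 0.58 ± 0.14 in tacrolimus and 0.52 ± 0.09 in control kidneys (SD, n = 4 arrays each). The difference of 0.06 on the log2 scale (SE 0.0856, 95% interval -0.13 to 0.25) did not pass limma's test (adjusted p = 0.748 over all tested miRNAs). As a fold it was 1.04, with an interval from 0.912 to 1.19.

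miR-10b-5p had unscaled signals of 2872, 2804, 1894 and 2982 on tacrolimus arrays 1 to 4, against 3046, 2149, 1822 and 2425 on control arrays 1 to 4. Its scaled levels were 0.36, 0.30, 0.20 and 0.43 on the tacrolimus arrays and 0.27, 0.17, 0.35 and 0.48 on the control arrays. The tacrolimus values all lay inside the control range. The mean was 0.32 ± 0.10 in tacrolimus and 0.32 ± 0.13 in control kidneys (SD, n = 4 each), a difference of 0.01 (SE 0.0854, 95% interval -0.18 to 0.20, adjusted p = 0.968, limma). The interval in folds ran from 0.880 to 1.15. Leaving out tacrolimus 4 alone put this difference at -0.14 and that of miR-10a-5p at -0.06, while the median of all tested miRNAs was then -0.06. Whenever an array was left out, the remaining arrays were scaled anew, which can shift the differences of all miRNAs together.

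miR-196a-5p had unscaled signals of 557, 701, 492 and 660 on tacrolimus arrays 1 to 4, against 730, 478, 373 and 429 on control arrays 1 to 4. Its scaled levels were -2.005, -1.70, -1.74 and -1.75 on the tacrolimus arrays and -1.79, -2.001, -1.94 and -2.02 on the control arrays. Tacrolimus 2, 3 and 4 lay above every control array, whereas tacrolimus 1 lay below all control arrays but control 4. The mean was -1.80 ± 0.14 in tacrolimus and -1.94 ± 0.10 in control kidneys (SD, n = 4 each). The difference of 0.14 (SE 0.0885, 95% interval -0.06 to 0.34) had an adjusted p of 0.484 in limma, and its interval in folds was 0.960 to 1.27. Without tacrolimus 4, and with the other arrays scaled anew, it was 0.01, when the median of all tested miRNAs was -0.06. Without tacrolimus 1 it was 0.21 (adjusted p = 0.331, limma, the lowest of 0.331 to 0.995 over 22 alternatives).

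miR-196b-5p had unscaled signals of 479, 589, 426 and 520 on tacrolimus arrays 1 to 4, against 627, 405, 338 and 353 on control arrays 1 to 4. Its scaled levels were -2.22, -1.95, -1.95 and -2.09 on the tacrolimus arrays and -2.01, -2.24, -2.08 and -2.30 on the control arrays. The 2 highest values were those of tacrolimus 2 and 3, and the groups overlapped. The mean was -2.05 ± 0.13 in tacrolimus and -2.16 ± 0.14 in control kidneys (SD, n = 4 each), a difference of 0.10 (SE 0.0930, 95% interval -0.11 to 0.31, adjusted p = 0.646, limma). In folds the interval ran from 0.930 to 1.24. Without tacrolimus 4, and with the other arrays scaled anew, the difference was 0.00516, when the median of all tested miRNAs was -0.06. Without control 1 or tacrolimus 1 it was 0.15 and 0.16.

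**Figure D1:**
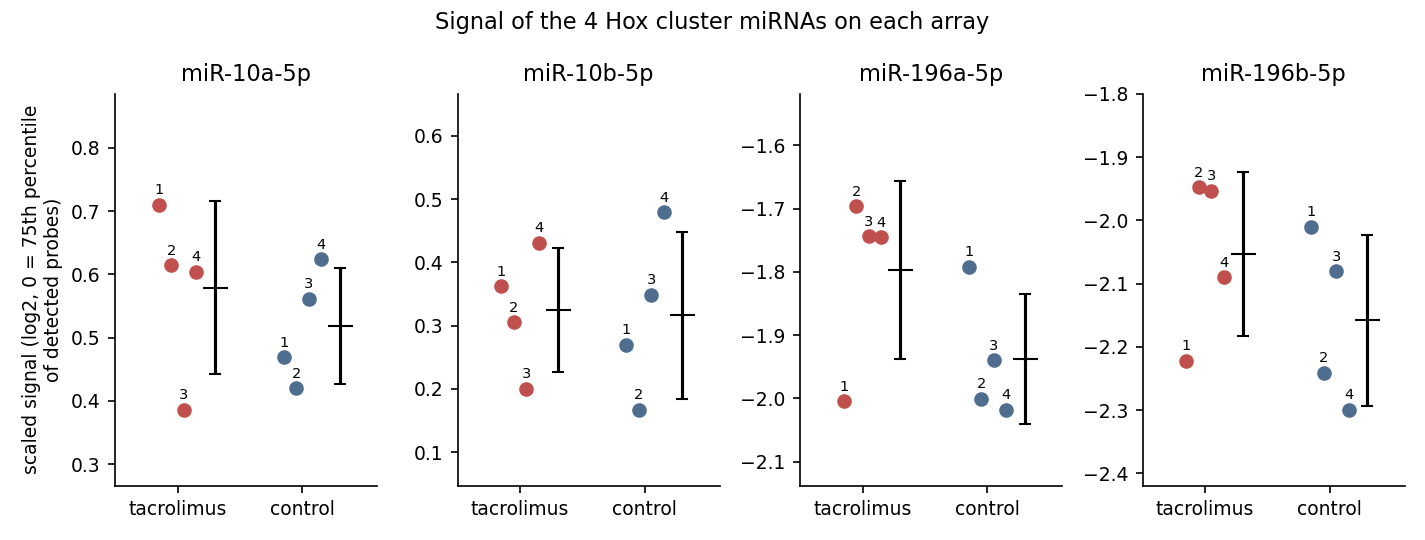
Scaled signal (log2, 0 being the upper quartile of probes that all arrays detected) of the 4 miRNAs on each array, numbered by replicate, with tacrolimus arrays in red on the left and control arrays in blue on the right of each panel. Bars are mean ± SD of 4 arrays; the vertical axes span the same range in every panel but start at different levels, and the groups overlap in all 4 panels.

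Of the 4 miRNAs, 0 passed an adjusted p of 0.05 in limma and 0 an unadjusted p of 0.05, against 3.09% and 15.5% of the 194 miRNAs tested. Groups that do not overlap were found for 0 of the 4, against 10.3% of the 194. The 4 differences had a median of 0.08 and all lay above 0, as did 115 of the 194, whose median was 0.04. Relative to that median, miR-10b-5p lay lower and the other 3 higher. The middle of the distribution of all tested miRNAs, between its quartiles, ran from -0.06 to 0.13, and miR-196a-5p was the 1 of the 4 above it.

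The shorter probes gave the same picture. All 10 probes had a difference above 0, from 0.00268 for the shorter probe of miR-10b-5p to 0.18 for the shortest probe of miR-196a-5p. The 4 probes of miR-196a-5p differed by 0.18, 0.15, 0.15 and 0.14 from the shortest (19 bases) to the longest (22 bases). Those of miR-196b-5p differed by 0.16 (19 bases) and 0.10 (20 bases), and those of miR-10a-5p by 0.05 (20 bases) and 0.06 (21 bases). Replicate spots of 1 probe on 1 array (7 to 20 after filtering) had coefficients of variation of 1.07% to 17.7%. Probes of one miRNA read the same RNA on the same arrays and are not replicates of the treatment.

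**Figure D2:**
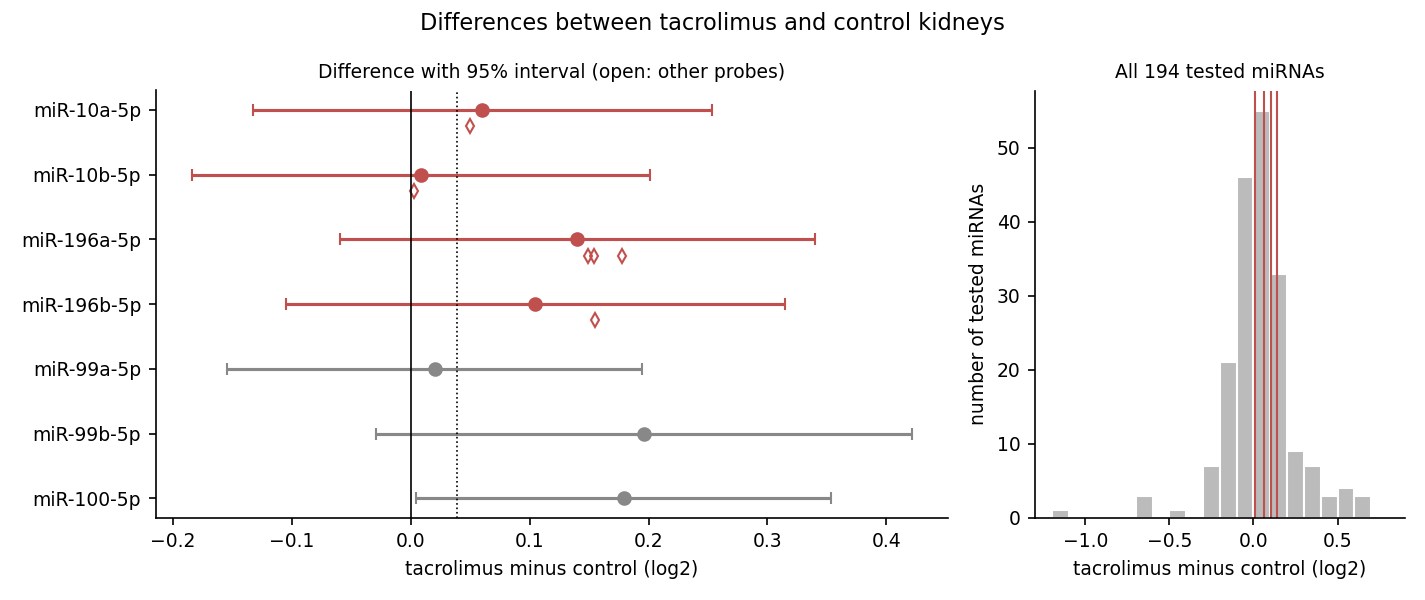
Left, difference of tacrolimus minus control (log2) with its 95% interval from limma for the 4 Hox cluster miRNAs (red) and 3 related miRNAs (grey), where open diamonds are the shorter probes, the solid line is 0 and the dotted line the median of all tested miRNAs. Right, the number of tested miRNAs by difference in bins of 0.1, with the 4 Hox cluster miRNAs as red lines near the middle, between 0.01 and 0.14.

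All arrays came from 1 slide and 1 scan. Tacrolimus arrays lay in one row of the slide and control arrays in the other, so the effect of the row and that of the drug cannot be told apart. A slide column paired 1 tacrolimus with 1 control array of the same replicate number. Within columns 1 to 4, tacrolimus minus control was 0.24, 0.19, -0.18 and -0.02 for miR-10a-5p and 0.09, 0.14, -0.15 and -0.05 for miR-10b-5p. Both thus lay above 0 in columns 1 and 2 and below 0 in columns 3 and 4. It was -0.21, 0.30, 0.20 and 0.27 for miR-196a-5p and -0.21, 0.29, 0.13 and 0.21 for miR-196b-5p, below 0 in column 1 and above 0 in the other 3.

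Whether the strands of a family changed unequally was tested on their ratio within each array. Scaling by 1 factor per array cancels in that ratio, whereas quantile normalization can alter it. The log2 ratio of miR-10a-5p over miR-10b-5p was 0.35, 0.31, 0.19 and 0.17 on tacrolimus arrays 1 to 4 and 0.20, 0.25, 0.21 and 0.14 on control arrays 1 to 4. It averaged 0.25 ± 0.09 in tacrolimus and 0.20 ± 0.04 in control kidneys (SD, n = 4 each), a change of 0.05 that did not pass an exact two-sided permutation test (p = 0.314, adjusted p = 0.457 over the 2 ratios). The ratio of miR-196a-5p over miR-196b-5p averaged 0.26 ± 0.06 in tacrolimus and 0.22 ± 0.06 in control kidneys (SD, n = 4 each), a change of 0.04 (exact two-sided permutation p = 0.457, adjusted p = 0.457). With 4 against 4 arrays no p below 0.0286 can be reached.

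From array to array, the probes of a family mostly shared their lowest arrays, and less uniformly their highest. Tacrolimus 3 was the lowest tacrolimus array on all 4 miR-10 probes, and among control arrays, control 2 was the lowest and control 4 the highest on all 4. On all 6 miR-196 probes the lowest tacrolimus array was tacrolimus 1, while control 1 was the highest control array on 5 of 6 and control 4 the lowest on 5 of 6. The highest tacrolimus array was not shared: it was tacrolimus 1 on both miR-10a-5p probes and tacrolimus 4 on both miR-10b-5p probes, and tacrolimus 2 on 4 of the 6 miR-196 probes with tacrolimus 3 and 4 on 1 each. Over the 8 arrays Pearson's r was 0.798 for miR-10a-5p with miR-10b-5p and 0.905 for miR-196a-5p with miR-196b-5p, and 0.821 and 0.891 after removing the group means. Between a miR-10 and a miR-196 strand r was -0.188 to -0.375, and -0.253 to -0.530 after removing the group means. These correlations are a description over 8 arrays whose values share the array, its scaling and, within a family, probes that differ by 1 base. The part of signal shared between such probes was not tested.

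**Figure D3:**
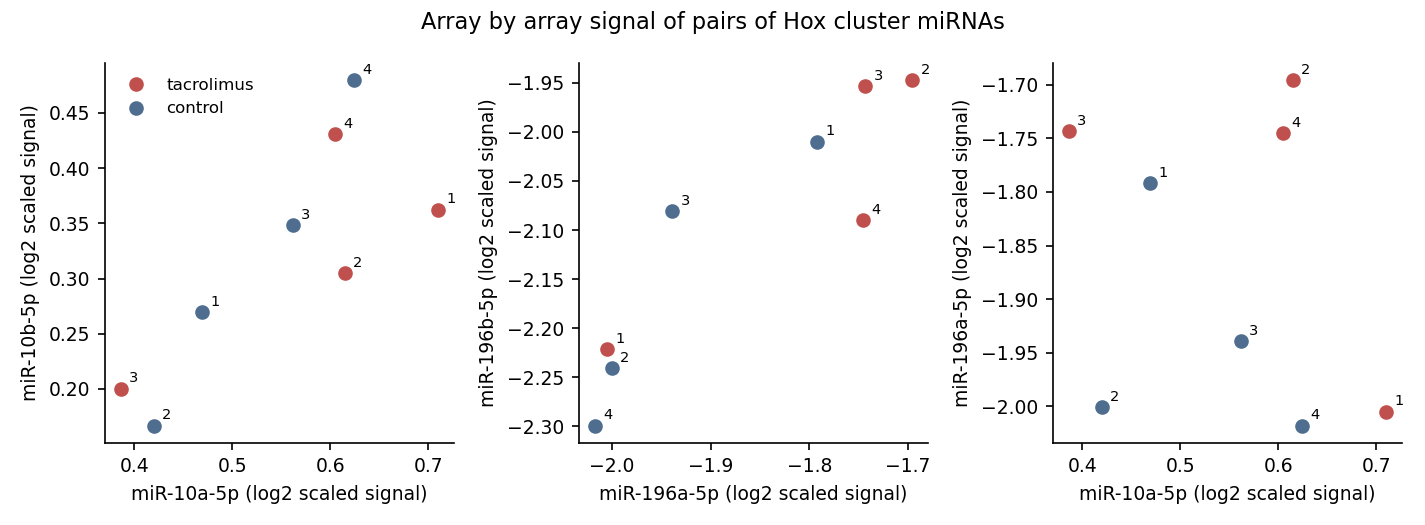
Scaled signal (log2) of miR-10b-5p against miR-10a-5p, miR-196b-5p against miR-196a-5p, and miR-196a-5p against miR-10a-5p. Each point is 1 of 8 arrays, red for tacrolimus and blue for control, numbered by replicate. The points run along a diagonal in the first and second panels (r = 0.798 and 0.905) and do not in the third.

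The tested miRNAs whose array pattern was most like that of each strand were named by the 3 highest values of Pearson's r over the 8 arrays. For miR-10a-5p these were the epithelial miR-141-3p (r = 0.887) and miR-200c-3p (0.874), which are made from one cluster, and miR-132-3p (0.868). For miR-10b-5p they were miR-148a-3p (0.880), miR-141-3p (0.871) and miR-200c-3p (0.860). For miR-196a-5p they were miR-196b-5p (0.905), miR-188-5p (0.880) and miR-24-3p (0.839), and for miR-196b-5p miR-196a-5p (0.905), miR-140-5p (0.895) and miR-301a-3p (0.893). The median r with all other tested miRNAs was -0.019, 0.038, 0.265 and 0.318 for miR-10a-5p, miR-10b-5p, miR-196a-5p and miR-196b-5p. As the highest of many values over few arrays, the leading ones are a description only.

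The opposite strands of the same hairpins were near or below background. Of 7 other miRNAs encoded in the Hox clusters (miR-10a-3p, miR-10b-3p, miR-196a-1-3p, miR-196a-2-3p, miR-196b-3p, and both strands of miR-615, whose gene lies within Hoxc5), 0 met the filter for testing. Only miR-10a-3p was detected on any array. Its probe with the highest mean scaled level was detected on 1 of 4 tacrolimus and 0 of 4 control arrays. That probe had unscaled signals of 38.4, 28.6, 16.5 and 18.4 on tacrolimus arrays 1 to 4 against 29.6, 27.2, 17.1 and 26.9 on control arrays 1 to 4. These ranges overlap, and no fold is given because both groups lay near background. Another of its probes was detected on 2 of 4 tacrolimus and 0 of 4 control arrays. In all, 3 of 192 readings of the 24 probes for these 7 miRNAs counted as detected, on tacrolimus 1 and tacrolimus 2.

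The hairpins of the genes for miR-196a-5p are shown because they carry the same 5′ strand and different 3′ strands (both in capitals, RNA, RefSeq on GRCm38.p6). Only the 3′ strands could tell the Hoxb and the Hoxc locus apart.
Mir196a-1 (chr11:96265164-96265265, + strand): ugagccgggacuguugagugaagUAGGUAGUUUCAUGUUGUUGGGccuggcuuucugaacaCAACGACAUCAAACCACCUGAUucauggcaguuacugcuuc
Mir196a-2 (chr15:102973350-102973434, + strand): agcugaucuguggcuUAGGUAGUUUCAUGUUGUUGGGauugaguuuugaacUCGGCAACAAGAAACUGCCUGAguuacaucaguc
Neither miR-196a-1-3p nor miR-196a-2-3p was detected on any array (0 of 4 tacrolimus and 0 of 4 control arrays each), so these arrays give no share of the 2 loci in the miR-196a-5p signal.

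The miR-99 and miR-100 strands are related to miR-10 in sequence but are encoded outside the Hox clusters, and their seed differs.
miR-100-5p (chr9:41531437-41531458, + strand): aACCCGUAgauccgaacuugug
miR-99a-5p (chr16:77598940-77598961, + strand): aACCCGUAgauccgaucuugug
miR-99b-5p (chr17:17830194-17830215, + strand): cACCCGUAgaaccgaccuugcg
Without its first base, miR-10a-5p matches 19 of 22 bases of miR-100-5p, 18 of miR-99a-5p and 15 of miR-99b-5p. miR-100-5p stood at -2.54 ± 0.12 in tacrolimus and -2.72 ± 0.07 in control kidneys (SD, n = 4 each), a difference of 0.18 (SE 0.0773). Its groups did not overlap, as for 10.3% of the 194 tested miRNAs, but its adjusted p in limma was 0.301. miR-99a-5p and miR-99b-5p differed by 0.02 and 0.20 (adjusted p = 0.899 and 0.402, limma). Of these 3, 0 were called in either direction and 1 had an unadjusted p under 0.05 in limma, against 3.09% and 15.5% of all tested. Their median difference was 0.18.

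The seed of let-7 contains the first 6 letters of the miR-196 seed, shifted by 1 base (let-7a-5p, from Mirlet7a-1, chr13:48538239-48538260, - strand: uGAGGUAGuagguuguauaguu). Of 10 names of the let-7 family, 9 were on the array and tested. Among them 0 were called and 1 had an unadjusted p under 0.05 in limma, against 3.09% and 15.5% of all tested. Their differences ran from -0.01 to 0.26 with a median of 0.07, against 0.04 over all tested miRNAs.

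The tissue label was checked by markers. All 6 kidney tubule miRNAs, among them miR-192-5p and miR-194-5p, were detected on every array. Of 3 neural miRNAs, miR-128-3p was detected on all arrays, at -4.25 in tacrolimus and -4.19 in control kidneys, and miR-124-3p and miR-9-5p on none. The liver miR-122-5p and the pancreatic miR-375-3p and miR-217-5p were detected on none, and of 4 striated muscle miRNAs only miR-1a-3p was detected, on 2 tacrolimus arrays. The 5 leukocyte miRNAs all had differences above 0, as did 115 of the 194 tested; 0 were called and 3 had an unadjusted p under 0.05 in limma, against 3.09% and 15.5% of all tested. Their summed scaled signal, on the linear scale, was 0.700 to 0.909 on tacrolimus and 0.428 to 0.690 on control arrays. Such sums are carried most by the brightest miRNAs of a list. The 3 erythrocyte miRNAs all had differences below 0, whereas 115 of the 194 tested lay above 0. Of these 3 miRNAs, 0 were called and 3 had an unadjusted p under 0.05 in limma, against 3.09% and 15.5% of all tested. Their sums were 1.88 to 2.50 on tacrolimus and 2.09 to 5.81 on control arrays. miR-451a, the brightest of the 3 at 1.14 in tacrolimus and 1.81 in control kidneys (log2), weighed most in them. Of 4 smooth muscle and stromal miRNAs, 2 were called higher, miR-199a-3p and miR-214-3p (adjusted p = 0.0476 each, limma). Both calls were lost in the 14 of 22 alternatives in which no miRNA was called, the replicate block among them. With normexp background and without control 3 only 1 miRNA was called, so at least 1 of these 2 calls was lost there too. Whether both held in the remaining alternatives is not given here. The others of the 4, miR-143-3p and miR-145a-5p, differed by 0.03 and -0.08 (adjusted p = 0.858 and 0.719, limma). The sums over the 4 were 0.987 to 1.24 on tacrolimus and 0.850 to 0.927 on control arrays. The called miR-199a-3p, the brightest of them at -0.55 in tacrolimus and -1.04 in control kidneys (log2), weighed most in these sums. Myeloid and progenitor blood cells are known to express miR-10a and miR-196b, and the part of blood cells in the Hox cluster values was not tested. In whole-kidney RNA, fewer cells of a type and less RNA per cell cannot be told apart. Per array, 9.60% to 15.2% of probes were detected, fewest on tacrolimus 4, whose negative controls also had the widest spread (SD 20.01 intensity units, against 4.45 to 10.5 on the others).

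Over 22 alternatives, which changed the processing or left out arrays, no difference of the 4 miRNAs passed the threshold. Those of miR-196a-5p and miR-196b-5p kept their sign in all 22, from 0.01 to 0.30 and from 0.00516 to 0.26. They also lay above the median of all tested miRNAs in all 22. The filter, floor, block and variance settings left all 4 differences unchanged, so no sign could turn there. The sign of miR-10a-5p turned in 3 and that of miR-10b-5p in 8 of the 22, with ranges of -0.11 to 0.22 and -0.18 to 0.16. Without scaling, the median of all tested miRNAs moved to 0.19, and the 4 differences were then 0.22, 0.16, 0.30 and 0.26 in the order miR-10a-5p, miR-10b-5p, miR-196a-5p and miR-196b-5p.

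**Figure D4:**
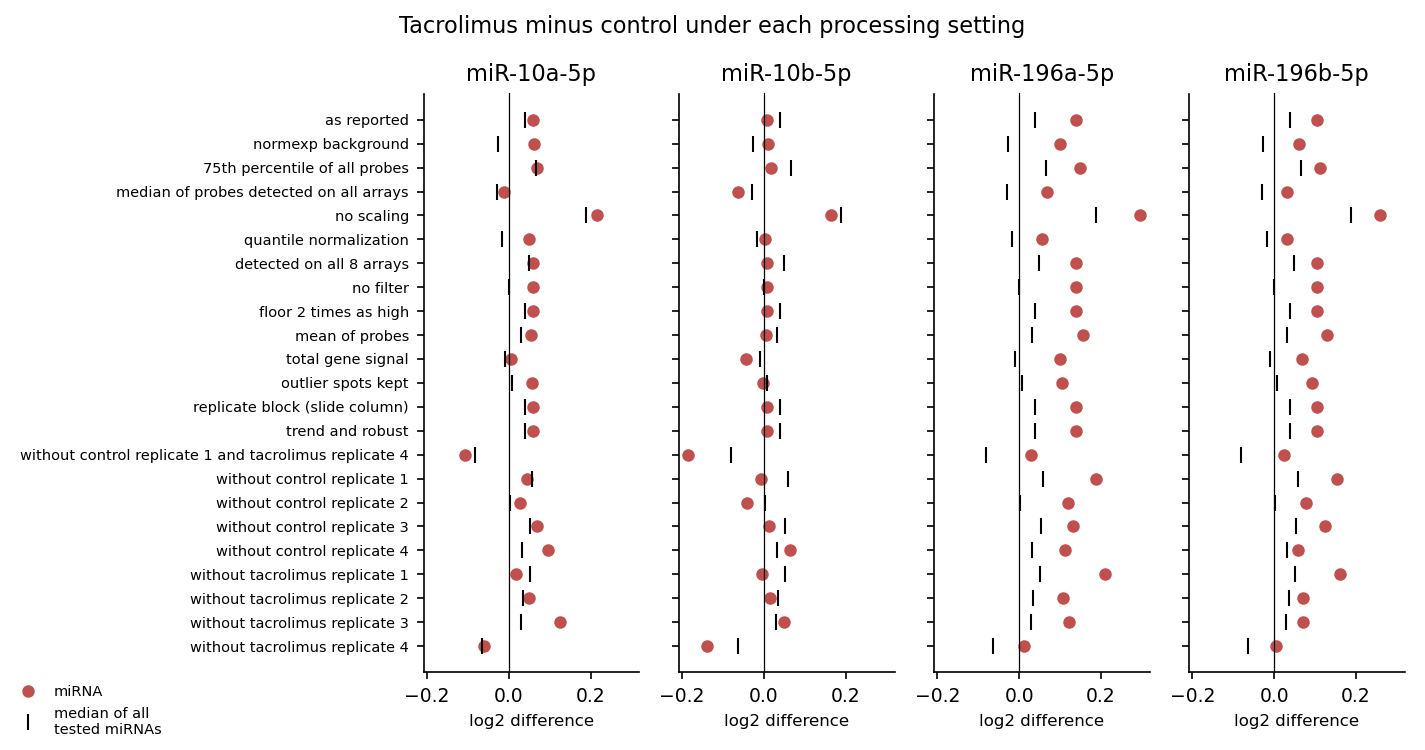
Difference of tacrolimus minus control (log2) of the 4 miRNAs (red points) under the reported processing (top line) and 22 alternatives, with the median of all tested miRNAs under the same setting as a black tick and 0 as a line. Red points and ticks shift together without scaling and without tacrolimus replicate 4, and the 2 miR-196 strands stay right of 0 throughout.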

How the data were processed

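The authors deposited, for each of the 8 samples, the spot intensities of a one-colour array. Per the file headers these were read by Feature Extraction 10.7.3.1. The deposited value table holds the same program's total gene signals (100% of values equal within 1e-06, column medians 0.1) and was an alternative. limma is named in the submitters' processing notes with no role.

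With R 4.3.3, limma 3.58.1 and the data.table package (1.17.8), outlier-marked spots (7.36% to 11.2% per array) were left out and spots averaged per probe. Scaling used each array's 75th percentile over commonly detected probes (0.5 of spots well above background); values were floored at -5.96 and log2-transformed. Each of 1023 miRNAs took its brightest probe, and 194 detected on at least 4 arrays were tested with limma (Benjamini-Hochberg, 0.05), after a test on simulated data. The number of arrays limits the precision. Alternatives covered background, scaling, filter, floor, probe choice, outlier spots, block, variance model and left-out arrays. Where arrays were left out, the remaining arrays were scaled and filtered anew. Members and lists were chosen with earlier results of these data known. Named were the 4 members, 7 other Hox cluster miRNAs, 3 relatives, and for each member the 3 miRNAs most like it.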

Additional observations from a re-analysis of the deposited data

Results flagged for a closer look

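In 30 groups of 4 arrays examined for the Hox cluster probes, their ratios and the 3 related miRNAs, 1 held an array far from the other 3, where chance flags about 1 in 20. On the longest probe of miR-196a-5p, tacrolimus 1 stood at -2.005 (log2), against a mean of -1.73 for the other 3 tacrolimus arrays. Its gap to the nearest array was 0.840 of the group's range. Tacrolimus 1 was also the lowest tacrolimus array on the other miR-196 probes. It was flagged on none of those, and they read the same RNA sample on the same array. Without tacrolimus 1, the difference of miR-196a-5p was 0.21 (SE 0.0797, unadjusted p = 0.0301, adjusted p = 0.331, limma, within 0.331 to 0.995 over the alternatives) and that of miR-196b-5p 0.16. In that setting 23 of 187 tested miRNAs had an unadjusted p under 0.05 in limma. As the array left out was flagged for its low value, a larger difference of miR-196a-5p follows from that choice.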

How the results depend on the processing

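Of 88 member differences recomputed under the alternatives, 77 kept their sign and their side of the threshold and 11 changed sign, none of them past the threshold. The 77 include the filter, floor, block and variance settings, which left the differences themselves unchanged and so could not turn a sign. miR-10a-5p was -0.012 with scaling by the median of detected probes, -0.06 without tacrolimus 4 and -0.11 without control 1 and tacrolimus 4. miR-10b-5p was -0.064 with median scaling, -0.045 with the total gene signal, -0.00135 with outlier spots kept, -0.18 without control 1 and tacrolimus 4, and -0.00704, -0.04, -0.00410 and -0.14 without control 1, control 2, tacrolimus 1 or tacrolimus 4. Without any 1 array the differences ranged from -0.06 to 0.12 (miR-10a-5p), -0.14 to 0.063 (miR-10b-5p), 0.01 to 0.21 (miR-196a-5p) and 0.00516 to 0.16 (miR-196b-5p). Without tacrolimus 4, or without it and control 1, the median of all tested miRNAs moved to -0.06 and -0.08. Both ratios kept their sign in all 16 alternatives each, at 0.02 to 0.08 and 0.00501 to 0.06. The floor and the block left both ratios unchanged. With the replicate block (slide column) the differences stayed at 0.06, 0.01, 0.14 and 0.10 (adjusted p = 0.789, 0.964, 0.587 and 0.659, limma). Same-numbered arrays correlated at 0.0946 to 0.140 in their deviations (3 of 4 pairs over 0.1). Only 1 of 4 tacrolimus and 1 of 4 control arrays correlated best with their own number. With 4 arrays per group, these values neither show nor exclude a pairing beyond the shared slide column. The count over all tested miRNAs was 6 as reported. It was 8 with median scaling, 7 with quantile normalization and 5 with detection on all 8 arrays required. It was 1 with normexp background and 0 when unscaled, unfiltered, floored 2 times as high, scaled over all probes or averaged over probes, with total gene signal, outlier spots kept, the block or trended robust variances, and without control 1 and tacrolimus 4 (2 to 37 at an unadjusted p under 0.05). Without any 1 array it was 0 to 7. The mean level over 8 arrays was 0.55, 0.32, -1.87 and -2.11 (miR-10a-5p, miR-10b-5p, miR-196a-5p, miR-196b-5p), against 8.63, 8.40, 6.21 and 5.97 when 0 is the 75th percentile of all probes, and -1.72 and -1.93 for both miR-196 strands with normexp. The 3′ strands lay too near background to be compared.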
